A study of Mus musculus with 8 samples.

Results

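The activin, follistatin and GDF genes examined here are 10 genes of the transforming growth factor beta superfamily and its regulators, namely Inhba, Inhbb, Fst, Fstl1, Fstl3, Gdf10, Gdf15, Acvr1, Acvr2a and Acvrl1. They were chosen by gene symbol, and the table of 34535 transcript isoforms, which holds 24356 gene symbols as spelled in it, lists all 10 of them with 18 isoforms. RNA was measured by sequencing in adipocyte precursors (APs), dermal mesenchymal cells that can form fat cells, sorted from male C57/Bl6 mice of 7 weeks of age. The nonwounded group held 6 samples of dorsal skin and the wound bed group 2 samples taken at day 5. No genotype, transgene or drug is named for either group, and the labels do not give the sorting gate or say whether animals were pooled.

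Activins are dimers of inhibin beta subunits that bind a type II receptor, which then recruits and phosphorylates a type I receptor, and the signal passes to SMAD transcription factors. Follistatins are secreted proteins that bind activins and keep them from their receptors, and growth and differentiation factors (GDFs) are related ligands, many of which share receptors with activins or bone morphogenetic proteins. Activin A, the dimer of the Inhba product, is known for its induction in healing skin, and in fat it is known to act on adipocyte precursors.

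Each group has a single FPKM value per isoform (sequenced fragments scaled to transcript length and library size), which the authors estimated over the samples of the group. The table therefore gives no SD and no sequencing depth, and it does not show how many samples moved the same way. The Cuffdiff p-value of the authors' deposited table was adjusted by the Benjamini-Hochberg method over all 17775 tested isoforms. An isoform is called here where this adjusted p was under 0.05, which held for 12.9% of them. Of all tested isoforms, 5.66% were called higher and 7.25% lower in wound bed APs. The lower calls included isoforms at 0 in wound bed APs, such as those of Acrv1, Adam3, Akap3 and Actl7b. Their part in the lower share was not computed, and which cells gave them was not tested. The labels do not say whether samples came from separate animals, so the spread between samples that enters these p-values may be technical. Fold changes are log2 of wound bed over nonwounded FPKM without a pseudocount, and the median over 12524 isoforms that reached an FPKM of 1 in each group was -0.11. All 10 AP and mesenchymal markers examined were present in both groups, 2 of them called lower (Cd24a and Dpp4) and 0 higher, with Pdgfra at a group FPKM of 81.2 in wound bed APs and 78.8 in nonwounded APs. In bulk RNA of a sorted population, fewer cells of a type and less RNA per cell cannot be told apart.

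The ligands among the members share a C-terminal domain held together by cysteines, which is the part that forms the secreted dimer. The last 45 codons of the 4 ligand genes, stop codon included, are shown to make this relation visible, 5′ to 3′ in lower case with the in-frame cysteine codons in capitals. They were read from the GENCODE M21 transcripts (GRCm38) that match the RefSeq identifiers of the table.
Inhba: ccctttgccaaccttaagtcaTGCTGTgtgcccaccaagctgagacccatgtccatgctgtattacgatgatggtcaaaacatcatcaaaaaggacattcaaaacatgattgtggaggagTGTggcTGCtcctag
Inhbb: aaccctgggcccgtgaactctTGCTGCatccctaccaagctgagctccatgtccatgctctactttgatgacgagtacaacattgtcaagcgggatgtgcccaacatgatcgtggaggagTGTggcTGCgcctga
Gdf10: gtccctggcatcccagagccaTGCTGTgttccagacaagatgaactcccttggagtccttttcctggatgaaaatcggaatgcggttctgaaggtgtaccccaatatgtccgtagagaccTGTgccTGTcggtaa
Gdf15: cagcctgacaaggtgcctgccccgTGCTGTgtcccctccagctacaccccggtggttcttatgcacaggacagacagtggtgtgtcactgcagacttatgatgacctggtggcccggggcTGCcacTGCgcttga
Each stretch held 4 cysteine codons, an adjacent pair and a pair separated by 1 codon just before the end. Counted back from the stop codon as 1, the adjacent pair lay at codons 38 and 37 in Inhba, Inhbb and Gdf10, and at 37 and 36 in Gdf15. Compared base by base without gaps, Inhba and Inhbb were identical at 94 of 135 bases (69.6%). Gdf10 was identical to Inhba at 51.1% and Gdf15 to Inhba at 31.9%.

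Both activin subunit genes stood higher in wound bed APs, and 1 of them was called. Inhbb, which encodes the subunit of activin B, stood at a group FPKM of 6.28 in wound bed APs and 1.01 in nonwounded APs. It rose by 2.63 on the log2 scale, a 6.20-fold difference (adjusted Cuffdiff p of 0.00715). Inhba, which encodes the subunit of activin A, stood at a group FPKM of 10.2 against 0.129, a log2 difference of 6.30. This was the largest difference among the members but was not called (adjusted Cuffdiff p of 0.0990), and with a pseudocount of 1 FPKM it became 3.31.

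The Inhba difference lay above 99.4% of the fold changes of major isoforms. The major isoform of a gene is the tested isoform with the most FPKM over both groups. Only those that reached an FPKM of 1 in either group were ranked. Inhba reached that minimum only through the wound bed column, so its rank is given as a description. Its nonwounded level was close to 0. Of 72 tested isoforms between 5 and 20 FPKM in wound bed APs and above 0 but under 0.5 FPKM in nonwounded APs, 11 were called (15.3%), a window chosen after the values of Inhba were seen. The p-value of Inhba in the authors' deposited table, 0.01745, was undercut by 19 of these 72. The table places Inhba on chromosome 13 from 16014475 to 16027211 and Inhbb on chromosome 1 from 119415465 to 119422248, each as the single gene of its locus.

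The ratio of the 2 subunit levels differed between the groups, without a test. Inhbb was at 7.88 times the FPKM of Inhba in nonwounded APs and at 0.618 times in the wound bed. The first ratio rests on an Inhba level of 0.129 FPKM, close to 0, and the Inhba difference was not called. Inha encodes the alpha subunit that joins a beta subunit to form inhibin, which opposes activin. Its group FPKM was 1.52 in wound bed APs and 4.37 in nonwounded APs, a log2 difference of -1.52 without a call (adjusted Cuffdiff p of 0.149). Inhba and Inhbb together stood at 10.8 times the FPKM of Inha in wound bed APs and at 0.262 times in nonwounded APs. For these ratios no test could be made, and which cells of the sorted samples gave the Inha levels was not tested.

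Among the GDF members, Gdf10 was called and Gdf15 was not. Gdf10, also known as BMP3b, stood at a group FPKM of 39.0 in wound bed APs and 21.4 in nonwounded APs. It rose by 0.86 on the log2 scale, a 1.82-fold difference (adjusted Cuffdiff p of 0.0110), and was the most abundant ligand of the list in both groups. Its locus is on chromosome 14 from 33923587 to 33935282. Gdf15, a cytokine gene known for its induction by cell stress, stood at a group FPKM of 2.83 against 0.151 and differed by 4.23 on the log2 scale without a call (adjusted Cuffdiff p of 0.209). With a pseudocount of 1 FPKM this difference became 1.74. The locus of Gdf15 is on chromosome 8 from 70629394 to 70631635.

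**Figure D1:**
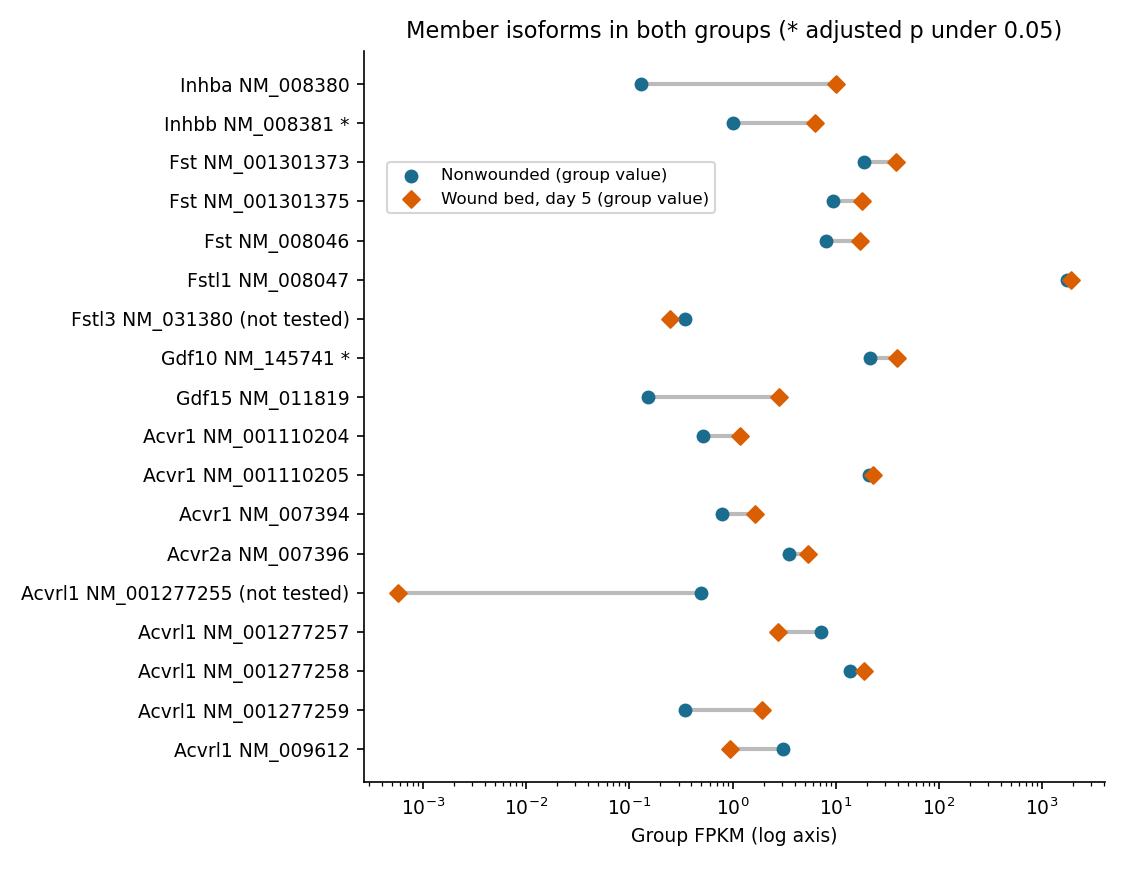
Group FPKM (horizontal log axis) of the 18 member isoforms (rows) in nonwounded APs (circles) and the day 5 wound bed (diamonds), 1 value per group with no error, and an asterisk where the adjusted p was under 0.05. Inhba runs from 0.129 to 10.2 and Inhbb from 1.01 to 6.28, while Fstl1 lies at 1771 and 1919.

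Follistatin transcripts stood about equally far apart in all 3 isoforms, and none was called. The isoforms differ in the end of the coding sequence, which is shown because follistatin forms with and without the acidic tail are known to differ in how they bind cell surface proteoglycans. The ends are given 5′ to 3′ up to the stop codon, from the same GENCODE transcripts, in lower case with glutamate codons in capitals.
NM_001301373: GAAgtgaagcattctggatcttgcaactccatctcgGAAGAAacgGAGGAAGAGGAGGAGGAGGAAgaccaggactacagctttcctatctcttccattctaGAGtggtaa
NM_008046: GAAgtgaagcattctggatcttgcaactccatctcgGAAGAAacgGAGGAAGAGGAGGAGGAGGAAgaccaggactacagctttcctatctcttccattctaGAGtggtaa
NM_001301375: GAAgtgaagcattctggatcttgcaactga
The first has a coding sequence of 1035 bases and the second of 1032 bases, and their last 311 bases are identical. The third has 954 bases, is identical to the first over its first 952 bases, and ends before the run of glutamate codons.

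The long Fst isoform NM_001301373 stood at a group FPKM of 38.5 in wound bed APs and 18.9 in nonwounded APs, a log2 difference of 1.03 (adjusted Cuffdiff p of 0.0824). The short isoform NM_001301375 stood at 17.9 against 9.38, a difference of 0.94 (adjusted Cuffdiff p of 0.0843). NM_008046 stood at 17.1 against 8.01, a difference of 1.09 (adjusted Cuffdiff p of 0.233). All 3 isoforms were thus higher in the wound bed column and missed the threshold. The short form held 24.4% of the Fst FPKM in wound bed APs and 25.8% in nonwounded APs, and the longest form 52.4% and 52.1%. Summed over isoforms, Fst stood at 73.6 against 36.3, a 2.03-fold difference, for which the table gives no p-value. Its locus is on chromosome 13 from 114452262 to 114458951, in which the matched transcripts have 6 exons each on the minus strand.

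Set beside its targets, Fst was more abundant than the activin subunit genes in both groups. The summed Fst FPKM was 31.8 times that of Inhba and Inhbb together in nonwounded APs and 4.47 times in the wound bed. The difference of the summed subunit genes was 3.85 on the log2 scale and that of Fst 1.02, and the difference between these was not tested.

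The follistatin-like members differed widely in level. Fstl1, a secreted glycoprotein gene of mesenchymal cells, was the most abundant member in both groups, at a group FPKM of 1919 in wound bed APs and 1771 in nonwounded APs. Its log2 difference was 0.12 (adjusted Cuffdiff p of 0.923). Fstl1 stood at 26.1 times the summed Fst FPKM in wound bed APs and at 48.7 times in nonwounded APs. It lies on chromosome 16 from 37777055 to 37836516.

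Fstl3, which encodes another activin-binding follistatin, was listed at 0.245 and 0.343 FPKM and was not tested by the authors. The locus given for it, on chromosome 10 from 79697305 to 80369637, holds 49 gene symbols with 74 isoforms. Reads were thus assigned to Fstl3 within a bundle of neighbouring genes. Of the 74 isoforms, 4 were called, beside 12.9% of all tested isoforms. How many of the 74 were tested was not counted, so these shares cannot be compared.

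No receptor among the members was called. Acvr2a, a type II receptor gene for activins, stood at a group FPKM of 5.34 in wound bed APs and 3.50 in nonwounded APs, a log2 difference of 0.61 (adjusted Cuffdiff p of 0.242). The locus of Acvr2a, on chromosome 2 from 48814109 to 48949267, also holds Orc4, a DNA replication gene. Acvr2b, the other activin type II receptor gene, was at 0.269 and 0.257 FPKM and was not tested, so that Acvr2a stood at 19.8 and 13.6 times its level. Acvr1b, the main type I receptor gene for activins, stood at 7.20 against 4.97 (adjusted Cuffdiff p of 0.306).

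Acvr1 and Acvrl1 encode the type I receptors ALK2 and ALK1, which mainly carry bone morphogenetic protein signals. Acvr1 lies on chromosome 2 from 58446438 to 58566828 and Acvrl1 on chromosome 15 from 101128522 to 101145336. The main isoform of Acvr1, NM_001110205, stood at a group FPKM of 23.2 in wound bed APs and 20.9 in nonwounded APs, a log2 difference of 0.15 (adjusted Cuffdiff p of 0.698). It held 89.1% and 94.1% of the Acvr1 FPKM, and the other isoforms stood between 0.517 and 1.67. Acvrl1 had 5 isoforms, of which NM_001277258 was the most abundant at 18.7 against 13.8 FPKM, a log2 difference of 0.44 (adjusted Cuffdiff p of 0.546).

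The Acvrl1 isoforms went in both directions without a call. NM_001277257 stood at 2.75 in wound bed APs and 7.20 in nonwounded APs, NM_009612 at 0.954 and 3.08, and NM_001277259 at 1.91 and 0.347. NM_001277255 was listed at 0.000567 and 0.499 and was not tested. The share of NM_001277258 was 76.9% in wound bed APs and 55.4% in nonwounded APs. All 5 are matched to a GENCODE coding sequence of 1509 bases. NM_001277259 has a match of its own, whereas the other isoforms share the same matched transcript, so their coding sequences were not compared with each other. Summed over isoforms, Acvrl1 stood at 24.3 and 24.9 FPKM, a log2 difference of -0.04, opposite in sign to that of its main isoform.

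**Figure D2:**
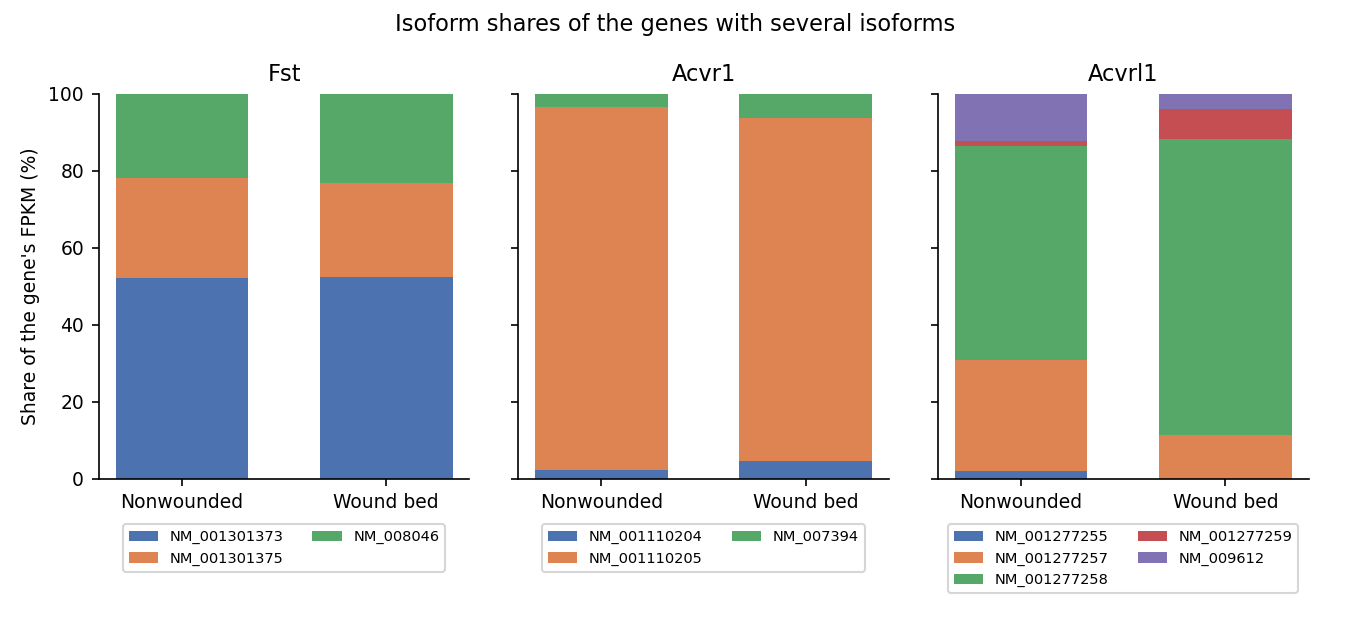
Share of each isoform in the summed FPKM of its gene (vertical axis, percent) for Fst, Acvr1 and Acvrl1 in nonwounded APs (left bars) and the wound bed (right bars), from 1 value per group with no error. The Fst bars are nearly alike, with the longest form at 52.1% and 52.4%, whereas NM_001277258 of Acvrl1 takes 55.4% and 76.9%.

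Of the 16 tested member isoforms, 2 were called higher and 0 lower, while 5.66% of all tested isoforms were called higher and 7.25% lower. An unadjusted Cuffdiff p-value under 0.05 in the authors' deposited table was reached by 5 of the 16, and by 27.3% of all tested isoforms. The 5 were those of Inhba, Inhbb and Gdf10 and 2 of Fst, all higher in the wound bed. Per gene, 9 members had a tested isoform, and the median log2 fold change of their major isoforms was 0.86, against -0.13 over 12960 major isoforms that reached an FPKM of 1 in either group. Inhba and Gdf15 reached that minimum only through the wound bed column, so this median is given as a description. By summed FPKM, Inhba was the tenth of the 10 members in nonwounded APs and the sixth in the wound bed, whereas Fstl1 was the first and Fst the second in both.

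**Figure D3:**
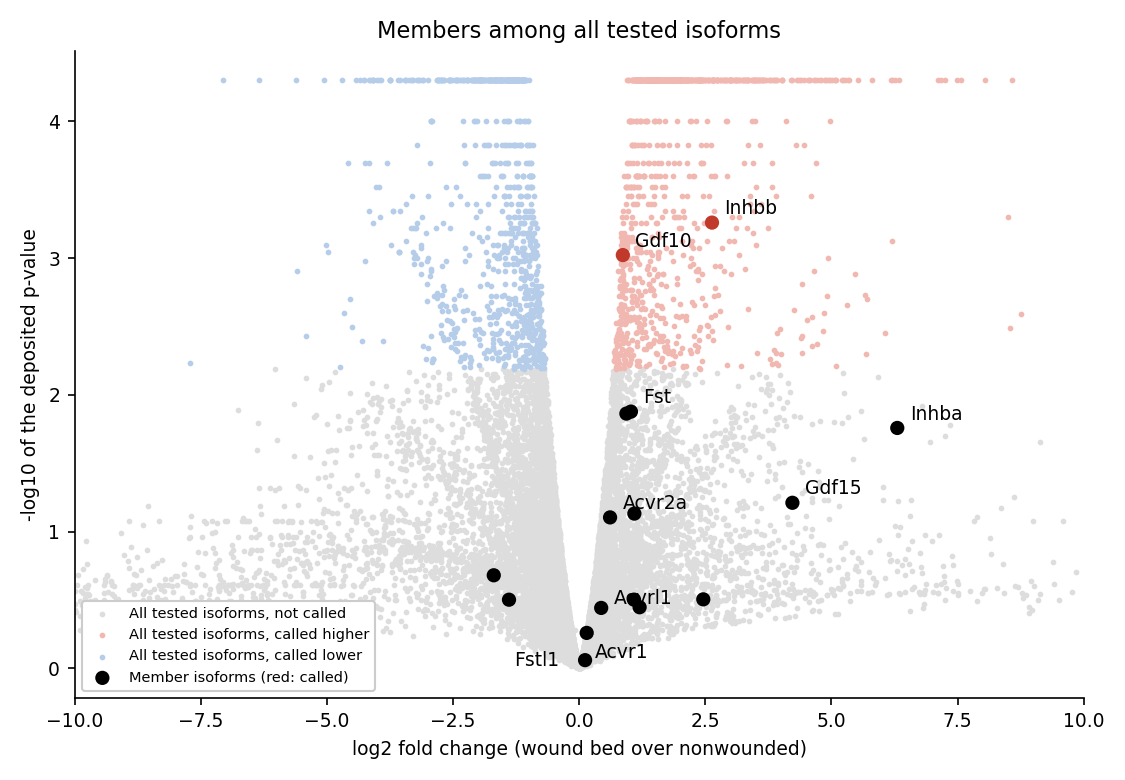
Log2 fold change (horizontal axis) against −log10 of the p-value in the authors' deposited table (vertical axis) for tested isoforms, with member isoforms as large points, red where called, and major isoforms named. Inhbb and Gdf10 lie among the called isoforms, while Inhba lies far to the right at 6.30 below them. The 753 isoforms at 0 in a group and the 251 beyond a log2 difference of 10 in either direction are not drawn.

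Other genes of the pathway were taken from lists of 58 ligands, receptors, co-receptors, antagonists, processing proteases, SMADs and SMAD regulators. Of these, 35 had a major isoform that reached an FPKM of 1 in either group, and 6 were called higher and 2 lower. The shares of 17.1% higher and 5.71% lower stand beside 7.39% and 8.7% of all such major isoforms, and the median log2 fold change was 0.32. Bmpr1b, Ret, Skil and Wfikkn2 reached that minimum only through the wound bed column and Igsf1 only through the nonwounded column. The shares and median are thus given as a description, and no test of the list as a whole was made.

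Of the other ligands, Gdf11, a close relative of myostatin, rose from a group FPKM of 1.22 to 7.04, by 2.53 on the log2 scale (adjusted Cuffdiff p of 0.0287). Apart from Gdf11 and Inha, the 11 other ligand genes of the list stood below an FPKM of 1 in both groups. Mstn, Inhbc, Inhbe and Nodal, all genes of activin-like ligands, were listed at 0 in wound bed APs and below 0.1 in nonwounded APs.

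The proteases that cut ligand precursors went both ways. Furin, the widely expressed proprotein convertase gene, rose by 0.89 on the log2 scale to 21.5 FPKM (adjusted Cuffdiff p of 0.0110), and its relative Pcsk5 by 1.50 to 68.3 (adjusted Cuffdiff p of 0.000882). Pcsk6, a convertase gene of the same family, fell by 1.64 on the log2 scale to a group FPKM of 13.4 (adjusted Cuffdiff p of 0.0257). Tll1, which encodes a tolloid metalloproteinase, fell by 1.28 to 4.69 (adjusted Cuffdiff p of 0.000882). Bmp1, a tolloid protease gene at 317 against 212 FPKM, was not called.

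Among receptors and co-receptors, Tgfbr1, the type I receptor gene for TGF-beta, rose by 0.75 on the log2 scale to a group FPKM of 15.3 (adjusted Cuffdiff p of 0.0373). The type I receptor gene Bmpr1a stood at 19.0 against 21.2 FPKM and Tgfbr3, the betaglycan gene whose product helps inhibin bind activin receptors, at 65.8 against 52.3, both without a call. Eng, a co-receptor gene of ALK1, stood at 7.33 against 13.5 FPKM for its main isoform without a call, and at 12.6 against 15.1 summed over isoforms.

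Most SMAD genes were not called, and the inhibitory SMAD gene Smad7 was. Smad7, whose product blocks type I receptors and is itself induced by the pathway, rose from a group FPKM of 1.80 to 10.7, by 2.57 on the log2 scale (adjusted Cuffdiff p of 0.000882). Smad3, an activin-regulated SMAD gene, stood at 11.7 against 13.4 FPKM, and Smad4, the common partner, at 25.2 against 20.2. The BMP-regulated Smad1 and Smad5 stood at 16.9 against 11.5 and at 12.1 against 11.9, and none of these 4 was called.

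Of the SMAD regulators, the corepressor gene Tgif1 rose by 1.98 on the log2 scale to 17.9 FPKM in its major isoform (adjusted Cuffdiff p of 0.00769), and its summed isoforms stood at 59.9 against 11.7. Skil, which encodes the SMAD corepressor SnoN, differed by 3.22 in its major isoform without a call (adjusted Cuffdiff p of 0.119), while a further isoform, NM_001039090, rose by 2.06 (adjusted Cuffdiff p of 0.0110). Ski, Smurf2, Ppm1a and Pmepa1, which encode inhibitors of SMAD signalling, stood at 27.3 against 30.0, 17.5 against 18.3, 31.5 against 40.5 and 22.3 against 15.8 FPKM, none of them called.

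**Figure D4:**
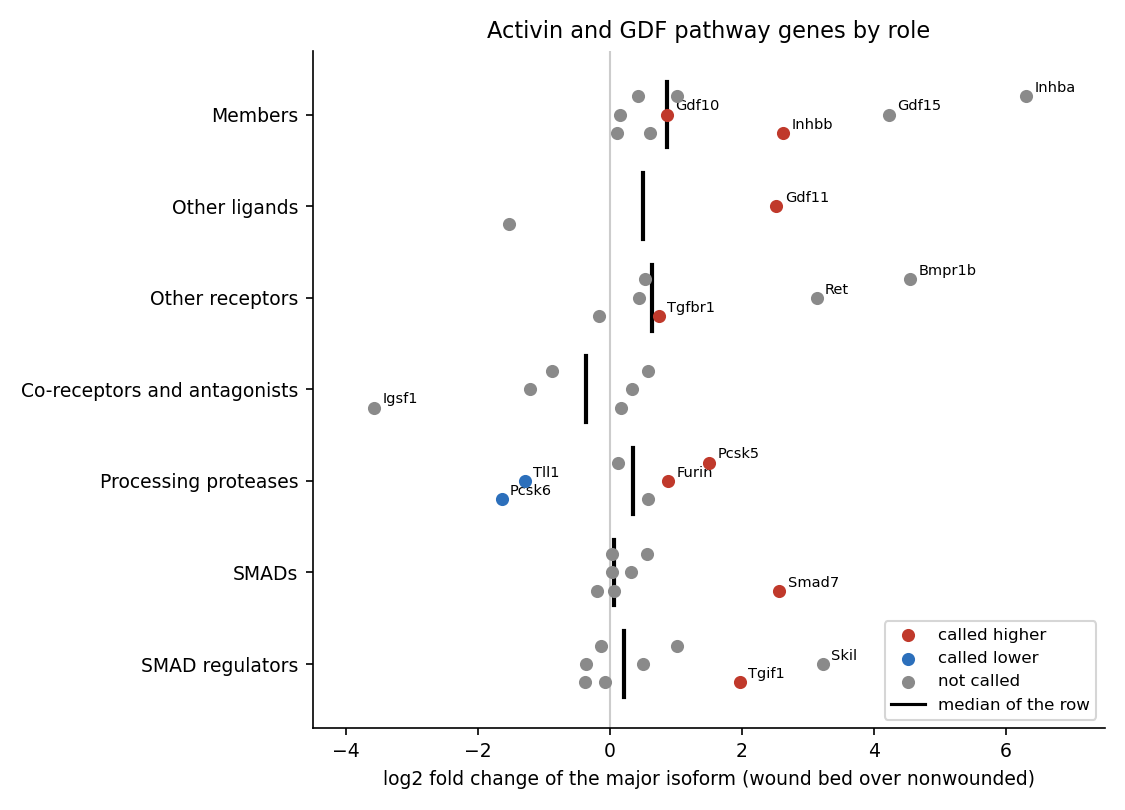
Log2 fold change of the major isoform (horizontal axis) for the members and the other pathway genes by role (rows), with each gene as a point (red for calls that are higher, blue for lower ones, grey for no call) and the row's median as a bar. Inhbb (2.63), Gdf11 (2.53) and Smad7 (2.57) are called at similar fold changes, and Pcsk6 (-1.64) and Tll1 (-1.28) are called lower. Among the other pathway genes, Bmpr1b (4.55) lies farthest to the right and Igsf1 (-3.57) farthest to the left, both without a call.

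Marker genes of other skin cells moved in the same comparison. A marker counts here as tested where its major isoform reached an FPKM of 1 in either group, and the sums run over all markers of a list. Activated macrophages are a known source of Inhba and Gdf15 transcripts, and 8 of the 10 macrophage and monocyte markers tested were higher by the same call and 0 lower, with a summed FPKM of 848 in wound bed APs and 244 in nonwounded APs. The neutrophil list summed to 105 and 2.83 FPKM with 0 of 4 called and Elane at 0 in both groups. Keratinocyte markers were called higher in 2 of 4 cases, Krt14 (10.9 against 3.45 FPKM) and Krt1 (4.71 against 0.298), and summed to 31.7 and 15.5. By summed isoforms 4 of the 6 markers stood higher in wound bed APs, with Krt10 nearly level at 5.69 against 5.10 FPKM. Epcam (0.261 against 0.824) and Trp63 (0.493 against 1.14) stood lower, without a call. The sums of these 3 lists thus stood higher in the same group as Inhba and Inhbb.

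Other lists summed to less in wound bed APs. Mast cells are another known source of Inhba, and 4 of 4 of their markers at that level were called lower, while Kit, which stayed below an FPKM of 1, was not called (adjusted Cuffdiff p of 0.108). The mast cell list summed to 6.25 and 59.1 FPKM. Mature adipocyte markers summed to 3.83 and 90.6 FPKM and skeletal muscle markers to 8.01 and 80.6, each with 1 of 5 called lower. Pericyte markers summed to 5.18 and 5.46 FPKM with 0 of 3 called, although 4 of the 5 markers stood higher in wound bed APs by summed isoforms. Only Des, which is also in the skeletal muscle list, stood lower (1.18 against 3.03 FPKM), without a call. With Des left out after its values were seen, the pericyte sum was higher in wound bed APs.

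Acvrl1 and Eng are typical of endothelium, and Eng is itself 1 of the 9 endothelial markers examined. These 9 markers gave 0 higher calls and 1 lower call (Lyve1) among the 6 tested. Their sums were 39.9 and 109.8 FPKM, of which Tek alone made up 18.4 and 83.1. Without Tek, left out after its values were seen, the sums were 21.5 and 26.7. Of these, Eng made up 12.6 and 15.1 FPKM and Lyve1 0.520 and 5.06, both lower in wound bed APs. By summed isoforms, 6 of the 9 markers stood higher in wound bed APs without a call. Pecam1 stood at 2.08 against 1.54 FPKM and Cdh5 at 1.39 against 0.929, summed over isoforms, where Acvrl1 stood at 24.3 against 24.9. The part of these cells in the values of Inhba, Inhbb, Gdf15 and Acvrl1 was not tested.

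The genes nearest to Inhba in their pair of group levels, among major isoforms that reached an FPKM of 1 in each group, were Irs2, Tifa, Pde4b, Sowahc and Gfra2. The measure was the Euclidean distance over the 2 log2 FPKM values, and it ran from 3.01 to 3.15. None is close, since the nonwounded level of Inhba lies below the minimum of 1 that these genes had to reach.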

How the data were processed

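RNA of sorted dermal APs was made into mRNA libraries, per the labels' protocols, and was aligned with TopHat2 2.0.2 and compared with Cuffdiff 2.0.2, with mm9 named as the build, per the submitters' processing notes. The authors deposited 1 isoform table with an FPKM value for each group (6 nonwounded and 2 wound bed samples) and a p-value per isoform. The number of per-sample columns not used was 0, and with no counts no count test was run. Of the isoforms, 17775 had the status OK and entered the adjustment, 16745 were marked as not tested, and 15 had failed or overflowed and were left out. The calls equalled those of the authors' deposited significance column for all 34535 isoforms.

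Starts were converted to count from 1. For 8 of the 10 members a locus end lay within 100 bases of the GRCm38.p6 RefSeq gene, so these positions match GRCm38 although mm9 is the build named. Fstl3 and Inhba did not match, with the start of Inhba off by 10219 bases and its end by 4398. Positions in mm9 were not compared. All 18 isoforms matched a GENCODE M21 transcript by RefSeq identifier.

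The members and lists were chosen with earlier results of these data known. All members are described. Of the pathway lists, called genes and those reaching an FPKM of 10 in either group are named. Inha, Acvr2b, Acvr1b, Skil, Bmpr1b, Ret, Wfikkn2, Igsf1 and the ligands listed at 0 were added after their values were seen. The 5 genes nearest to Inhba were found by rule. The alternatives were adjusted p thresholds of 0.01 and 0.1, a minimum log2 difference of 1, other FPKM minimums, pseudocounts of 1 and 0.1, centring and isoform sums. The adjustment was tested on simulated data. Python 3.11.15, numpy 2.4.6, pandas 2.3.3 and matplotlib 3.10.9 were used.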

Additional observations from a re-analysis of the deposited data

How the results depend on the processing

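The number of member isoforms called was 2 and became 1 (Inhbb) at an adjusted p under 0.01, 5 at a threshold of 0.1, and 1 where a log2 difference of 1 was required. Per member gene, the number was 2 of 9 and became 1, 4 and 1 under the same settings. Inhba and Fst joined Inhbb and Gdf10 at 0.1. The main setting called 16.1% of all major isoforms that reached an FPKM of 1 in either group, in either direction. Such shares were not computed under the other settings, so the changed counts stand without a background. For the other pathway genes, 8 calls became 4 at an adjusted p under 0.01 (Pcsk5, Smad7, Tgif1 and Tll1) and were 6 to 8 under the other settings. Adjustment over isoforms reaching an FPKM of 1 changed no member's call. Of 36 recomputed log2 fold changes of members, 30 kept their sign and moved by less than a factor of 1.5, and 6 did not. These were Inhba and Gdf15 with either pseudocount (3.31 to 5.49 and 1.74 to 3.54), Inhbb with a pseudocount of 1 (1.85) and the isoform sum of Acvrl1 (-0.04). No paired analysis was possible because the table holds 1 value per group, and for the same reason no sample could be left out. Sample depths are unknown, and no floor can be given for the low nonwounded levels of Inhba and Gdf15.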
